A study of Mus musculus with 22 samples.

Results

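Granule cells of the postnatal mouse cerebellum were compared after culture with and without Smo2, the name that the labels give to the agent added to the medium. The comparison took 6 of the 22 arrays of the series, chosen by their titles alone, with 3 arrays of cells cultured with Smo2 and 3 arrays of their own control, labelled Smo2_con. The cells of both groups were called cerebellar granule neurons (CGNs) or granule neuron progenitors in the labels and came from the cerebellum of P7 (postnatal day 7) pups of the strain given as C56Bl6/J, with no genetic change named. The methods of the study describe purification of progenitors on a Percoll gradient from pups not separated by sex, plating on Matrigel, and culture of progenitors with or without the Smoothened agonist SAG. The labels do not say that Smo2 is that compound, and give neither its dose nor the days in culture. The other 16 arrays, from Chd7 mutant cells, cells treated with ICRF-193 and the controls of both, were used only to normalize all arrays together and for one comparison near the end. Biotin-labelled RNA was hybridized to a 1-colour Affymetrix array, on which a gene is read by 1 or more probe sets, and 10710 genes were tested. Values below are log2 signal after normalization, so that a difference of 1 is a 2-fold change. The value after ± is the SD of 3 arrays for a level and the standard error (SE) for a difference. Genes were tested where their mean over the 6 arrays was at least 6.47, the median of all probe sets. A gene can pass through 1 group alone, and differences are then known less well. This applies to Gli1, Gli3, Hhip, Igf2, Hes1, Cdc6, E2f2, Exo1, Hk2, Sox18, Gpr153, Bcl11b, Pgf, Sfrp2, Tbata, Myod1, Cbln4 and Epha8, whose control means lie below that level, and to Fbxo44, Gpr17, Mfap4, Adra2c, Enpp6 and Chd5 with Smo2.

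Granule neuron progenitors divide in the external granule layer of the cerebellum in response to Sonic hedgehog that Purkinje cells secrete. Hedgehog binds the receptor Patched, which releases Smoothened to signal through the primary cilium and the Gli transcription factors, and these turn on Gli1, Ptch1, Mycn and the D-type cyclins. When the signal is withdrawn, progenitors leave the cell cycle, extend parallel fibres and become granule neurons.

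The 2 groups stood far apart. Correlations between arrays of the same group ran from 0.989 to 0.992 over the genes tested and between groups from 0.875 to 0.882, and the first principal component, which separated the groups, held 90.3% of the variance. With Smo2, 3356 genes were higher and 4113 lower at an adjusted p under 0.05, which is 31.3% and 38.4% of the genes tested. At least 2-fold changes were called in 985 genes higher (9.2%) and 881 lower (8.23%). The sizes were lopsided. A change of at least 4-fold was called in 376 genes higher with Smo2 and in 9 lower, and a change of at least 8-fold in 117 higher and 1 lower. The labels call the replicates biological but do not say that they came from separate litters or cultures, so the p-values measure the spread between these arrays only. In a bulk sample, fewer cells of a type and less RNA per cell cannot be told apart.

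The direction of many changes, and the number of decreases of at least 2-fold, depended on the scale. The deposited values have 1 common trimmed mean in all arrays, and over the genes tested the median difference was -0.07. With each array centred on its median in place of quantile normalization, 4218 genes were higher and 3120 lower, so that the share of higher genes among those called went from 44.9% to 57.5%, and among genes called at least 2-fold from 52.8% to 65.9%. Probe sets for the control transcripts of the array maker's kits read lower with Smo2. The 9 probe sets of the hybridization controls averaged 12.03 ± 0.09 with Smo2 and 12.41 ± 0.06 without (SD, n = 3 each). The 12 probe sets of the poly-A controls, which such kits add to the RNA before labelling, averaged 7.36 ± 0.30 with Smo2 and 8.27 ± 0.08 without. Centring the arrays on these controls was added after the data were seen. It moved the median difference of all genes to 0.28 with the hybridization controls and to 0.81 with the poly-A controls, and the share of higher genes among those called to 72.5% and 95.5%. All 3356 genes called higher were still called higher on both scales, whereas 1942 and 344 of the 4113 lower genes were still called lower. On the poly-A scale 2894 of the 4113 lower genes lay above 0. Decreases of at least 2-fold went from 881 genes to 356 with the hybridization controls and to 25 with the poly-A controls. Differences are therefore given relative to the other genes on the array, and it was not tested which scale tracks the RNA content of a cell.

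**Figure D1:**
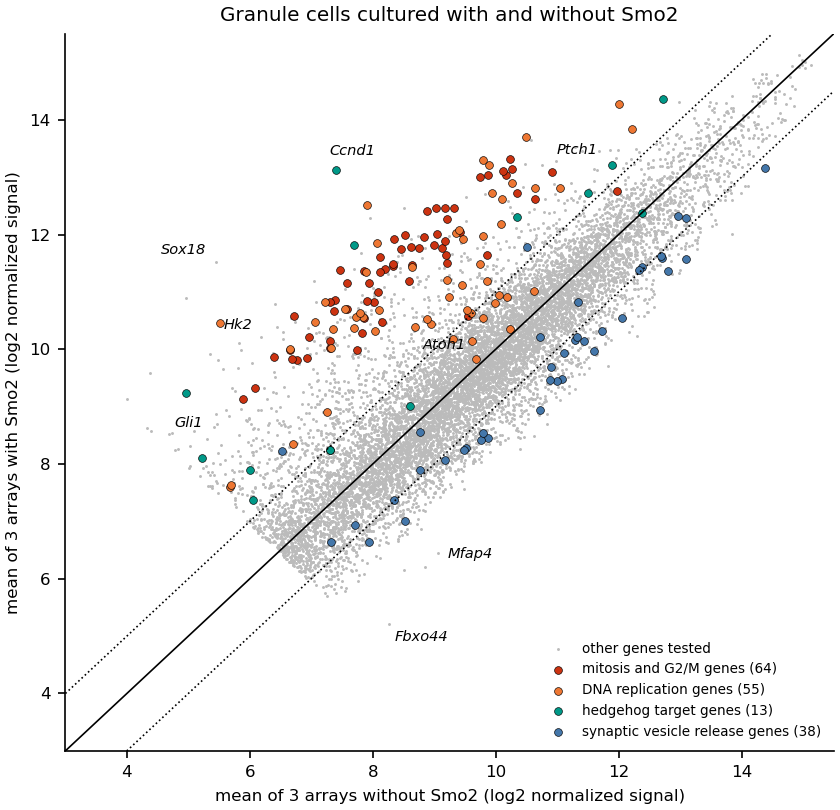
Mean log2 normalized signal of the 3 arrays without Smo2 (horizontal axis) and of the 3 arrays with Smo2 (vertical axis) for 10710 genes, with members of 4 gene lists in colour. The solid line marks equal signal and the dotted lines a 2-fold change. Most mitosis, DNA replication and hedgehog target genes lie above the upper dotted line and most synaptic vesicle genes below the diagonal, and the points spread farther above the diagonal than below it.

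Hedgehog target genes were read first. Of 13 tested, 12 rose with Smo2 (92.3%, against 31.3% of all genes) and none fell, 10 of them at least 2-fold. The median difference of the 13 genes was 1.63 against -0.07 over all genes. Gli1, Hhip, Igf2 and Hes1 among them passed the filter through the arrays with Smo2 alone, so this count is not a test of the labels. Gli1, the transcription factor that reports the pathway most directly, read 4.78, 5.74 and 4.38 in the control arrays and 9.26, 9.22 and 9.24 with Smo2. The control arrays lay near the floor of the scale at 4, and the 3 Smo2 arrays agreed within 0.04. The difference was 4.27 ± 0.32 (SE, adjusted p = 5.69e-05). Gli2, the main activator among the Gli factors, read 8.06, 7.39 and 7.65 without Smo2 and 11.82, 11.85 and 11.81 with it, a difference of 4.13 ± 0.16. Ptch1, the hedgehog receptor and itself a target, read 11.85 to 11.92 without Smo2 and 13.17 to 13.27 with it, a difference of 1.31 ± 0.06. Its control level was already among the brighter ones, unlike that of Gli1. Hhip, which binds hedgehog ligand outside the cell, was lower than 6 in every control array, at the floor in 1 of them, and between 8.06 and 8.16 with Smo2 (difference 2.88 ± 0.50). Mycn, the Myc family member of granule progenitors, differed by 1.23 ± 0.05, Ccnd2 by 1.63 ± 0.05, Hes1 by 1.32 ± 0.20, Foxm1 by 0.94 ± 0.22 and Bcl2 by 0.40 ± 0.11. The Wnt antagonist Sfrp1 differed by 1.95 ± 0.05. Igf2, a growth factor that acts with hedgehog on these cells, differed by 1.89 ± 0.65 with an adjusted p of 0.0378, a call that was lost without Smo2 replicate 1 (2.01), 2 (2.03) or 3 (1.63). Bmi1, a Polycomb gene, was the member that did not pass, at 12.37 ± 0.02 with Smo2 and 12.39 ± 0.06 without.

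Ccnd1, the D-type cyclin that hedgehog raises in these cells, was the third in size of all genes tested, after Sox18 and Gpr153, whose control arrays lay between 4.72 and 6.06. It read 7.60, 7.28 and 7.32 in the control arrays and 13.10, 13.15 and 13.16 with Smo2, a 53.2-fold change (5.73 ± 0.09, adjusted p = 6.9e-07). All 3 of its probe sets that passed the filter were called higher, at 5.06 to 5.99.

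Genes that receive and pass on the signal did not move as a block. Of 20 tested, 6 rose and 10 fell, with a median of -0.21 that is above 0 when arrays are centred on the hybridization controls (0.10) or the poly-A controls (0.63). Smo, the transducer itself, read 8.90, 8.93 and 8.88 without Smo2 and 10.84, 10.99 and 10.89 with it, a 4.0-fold change. Gas1, a membrane co-receptor for the ligand, rose by 2.39 ± 0.08 and Boc, another co-receptor, by 0.61 ± 0.09. Gli3, which acts mostly as a repressor, rose by 1.40 ± 0.39, a call lost without control replicate 2 (1.31) or Smo2 replicate 2 (1.33) or 3 (1.19). Lower genes were led by Disp2, a relative of the protein that releases the ligand, at -1.89 ± 0.17. Btrc, a ubiquitin ligase subunit that helps to process Gli proteins, was at -1.01 and Gpr161, a ciliary receptor that restrains the pathway, at -0.72 (-0.28 and not called by the mean of its probe sets). Primary cilium genes were mixed as well, with 11 of 26 higher (42.3%, against 31.3% of all genes) and 8 lower (30.8%, against 38.4%). Ift80, an intraflagellar transport gene, was the highest of them at 1.57 ± 0.08 and Kif3c, a neuronal kinesin, the lowest at -1.11.

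**Figure D2:**
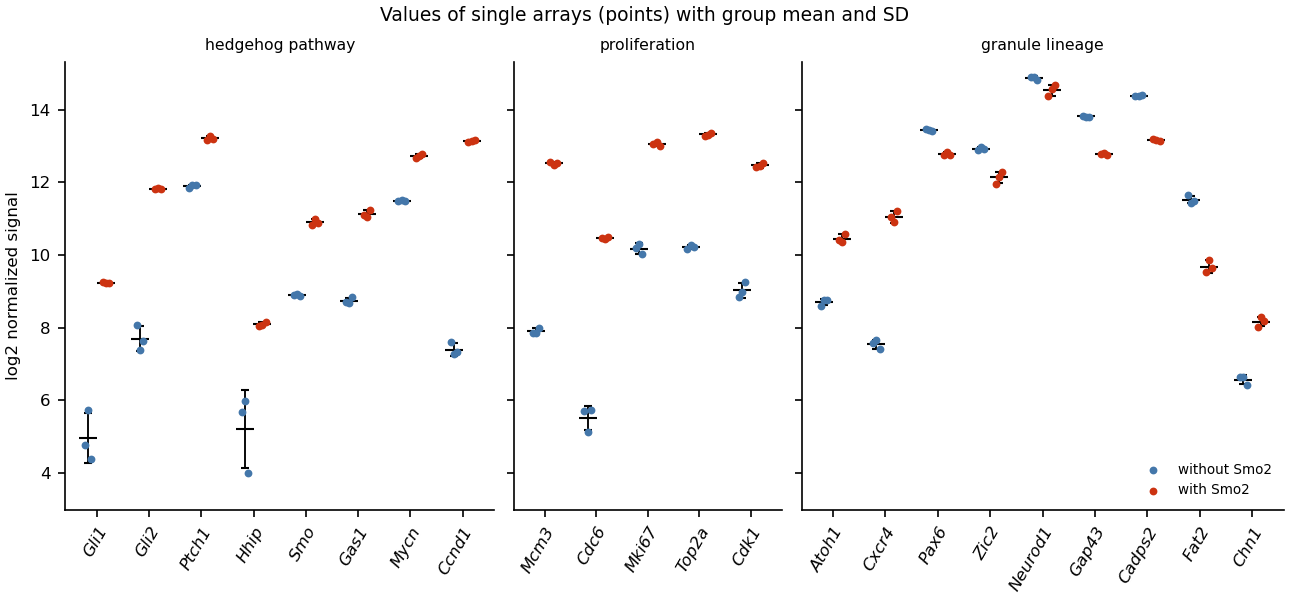
Log2 normalized signal of every array for hedgehog pathway, proliferation and granule lineage genes, with blue points for the 3 arrays without Smo2, red points for the 3 with Smo2, and black bars for the group mean and SD. Hedgehog and proliferation genes are higher with Smo2 in every array, whereas Pax6, Zic2, Neurod1, Gap43, Cadps2 and Fat2 are lower and Atoh1, Cxcr4 and Chn1 higher.

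Genes of DNA replication and mitosis are often read from promoters with short shared elements, and these were looked up first. E2F factors bind sites such as TTTCCCGC and TTTGGCGC in genes of the G1 to S transition, and the DREAM and MuvB complexes bind the cell cycle homology region TTTGAA next to CCAAT boxes of NF-Y in genes of G2 and mitosis. RefSeq promoter windows of the mouse build GRCm38.p6, from 250 bases before the start to 50 after it, were held for 46 of the 55 replication genes tested and 54 of the 64 mitosis genes. One of the E2F octamers searched, which also included TTTCGCGC, was found on either strand in 15 of 55 replication windows (27.3%), in 8.47% of mitosis windows, in 3.59% of the windows of all genes tested and in 1.84% of all windows in the table. A CCAAT box was found in 74.6% of mitosis windows and in 38.0% of all genes tested, and TTTGAA in 64.4% and 11.5%. Both stood in the same window in 33 of 59 mitosis windows (55.9%) and in 4.51% of those of all genes tested. The examples leave out windows on a whole chromosome, so genes there were not ranked. Among the other genes, the 3 replication genes with the largest differences that hold an E2F octamer upstream of the start are shown. They are read on the strand of the gene, with every octamer of either strand in capitals and 12 bases on both sides. In the first run of capitals in Mcm6 and in that of Mcm5, octamers of both strands overlap.
Cdc6, chr11:98908001-98908032, plus strand: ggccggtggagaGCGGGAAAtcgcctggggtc
Mcm6, chr1:128359733-128359827, minus strand: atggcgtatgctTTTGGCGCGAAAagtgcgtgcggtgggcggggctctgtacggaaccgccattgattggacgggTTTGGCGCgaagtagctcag
Mcm5, chr8:75109344-75109379, plus strand: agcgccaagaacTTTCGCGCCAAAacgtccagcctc
With the same chromosome left out, the 3 mitosis genes with the largest differences that hold both a CCAAT box and TTTGAA upstream are shown likewise. Both elements are in capitals in either direction.
Ncapg, chr5:45669737-45669912, plus strand: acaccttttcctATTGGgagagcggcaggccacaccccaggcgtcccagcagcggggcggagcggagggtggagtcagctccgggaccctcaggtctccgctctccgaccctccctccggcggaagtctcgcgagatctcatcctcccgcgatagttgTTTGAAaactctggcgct
Cdk1, chr10:69352913-69353132, minus strand: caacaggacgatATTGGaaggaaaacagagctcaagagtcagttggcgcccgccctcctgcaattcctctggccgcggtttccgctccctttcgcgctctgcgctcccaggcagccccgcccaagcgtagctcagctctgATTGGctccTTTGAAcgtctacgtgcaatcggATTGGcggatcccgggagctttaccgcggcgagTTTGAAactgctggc
Ccnb2, chr9:70421559-70421733, minus strand: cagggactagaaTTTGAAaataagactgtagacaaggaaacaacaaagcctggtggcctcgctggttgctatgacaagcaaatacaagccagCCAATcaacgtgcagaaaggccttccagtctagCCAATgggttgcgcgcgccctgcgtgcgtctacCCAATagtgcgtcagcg
A match says that these letters are present, not that a factor was bound. The Gli element GACCACCCA was in none of the 10 windows held for 7 hedgehog targets, which says only that it is not within these windows, and in 0.204% of those of all genes tested.

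Every one of the 64 mitosis genes tested rose with Smo2, 62 of them at least 2-fold, around a median of 3.07. They ran from the checkpoint gene Bub3 at 0.78 to Spc24, a subunit of a kinetochore complex, at 3.90 ± 0.27. Mki67, the marker of cycling cells, read 10.19, 10.31 and 10.01 without Smo2 and averaged 13.05 ± 0.05 with it (2.88 ± 0.09). Top2a, the DNA topoisomerase of dividing cells, read 10.17, 10.28 and 10.23 without Smo2 and 13.28, 13.31 and 13.36 with it, an 8.53-fold change. Neither gene was near the floor in the control arrays. The promoter genes above belonged to the same range, with Ncapg, a condensin subunit, at 3.86, Cdk1, the mitotic kinase, at 3.44 and Ccnb2, one of its cyclins, at 3.17. Summed over the list, the linear signal was 32600 to 34000 without Smo2 and 217000 to 223000 with it.

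Of 55 DNA replication genes tested, 53 rose and none fell (median 2.18), and the 2 that did not pass, Orc4 at 0.12 and Orc3 at 0.16, encode origin recognition subunits. Cdc6, which loads the replicative helicase, read 5.70, 5.13 and 5.73 without Smo2 and 10.48, 10.44 and 10.48 with it (4.95 ± 0.16). Mcm3, a subunit of that helicase, averaged 7.90 ± 0.08 without Smo2 and read 12.55, 12.49 and 12.52 with it, a 24.6-fold change. The helicase subunits Mcm2, Mcm6 and Mcm5 followed at 3.79, 3.51 and 3.32, and thymidine kinase Tk1 at 3.60. The G1 cyclins, their kinases and E2F factors rose in 24 of 27 genes, among them E2f2 at 3.61 ± 0.19, Cdk6 at 2.96 ± 0.11 and the cyclin gene Ccne2 at 3.07. Rb1, the pocket protein that restrains E2F, was the 1 member called lower, at -0.17 (adjusted p = 0.0279). It was above 0 with median centring (0.04) and was not called when any 1 of the 6 arrays was left out (-0.18 to -0.14). Recombination and repair genes rose in 25 of 27 and fell in 1, led by the exonuclease Exo1 at 3.94 ± 0.16 and the uracil glycosylase Ung at 3.74 ± 0.10.

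Chromatin genes of dividing cells rose in 19 of 21, with Uhrf1, which guides maintenance methylation to new DNA, at 3.96 ± 0.07, and the remodeller Hells at 3.86 ± 0.13. Nucleolar and ribosome biogenesis genes rose in 29 of 30 (median 1.08), led by Nhp2 at 1.86 ± 0.05, and cytosolic ribosomal protein genes in 16 of 19 with a median of only 0.34. Oxidative phosphorylation genes stayed near the middle of all genes, with 10 of 30 higher, 3 lower and a median of 0.03. Of 17 genes for cell cycle exit tested, 5 rose (29.4%) and 6 fell (35.3%), shares near those of all genes (31.3% and 38.4%). Cdkn1b, the p27 inhibitor of postmitotic granule cells, read 13.45, 13.40 and 13.40 without Smo2 and 12.96, 12.92 and 12.99 with it, a 1.37-fold decrease. Cdkn2c, the p18 inhibitor of Cdk4 and Cdk6, was higher with Smo2 by 1.65 ± 0.05 and Gadd45g by 1.70 ± 0.06.

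**Figure D3:**
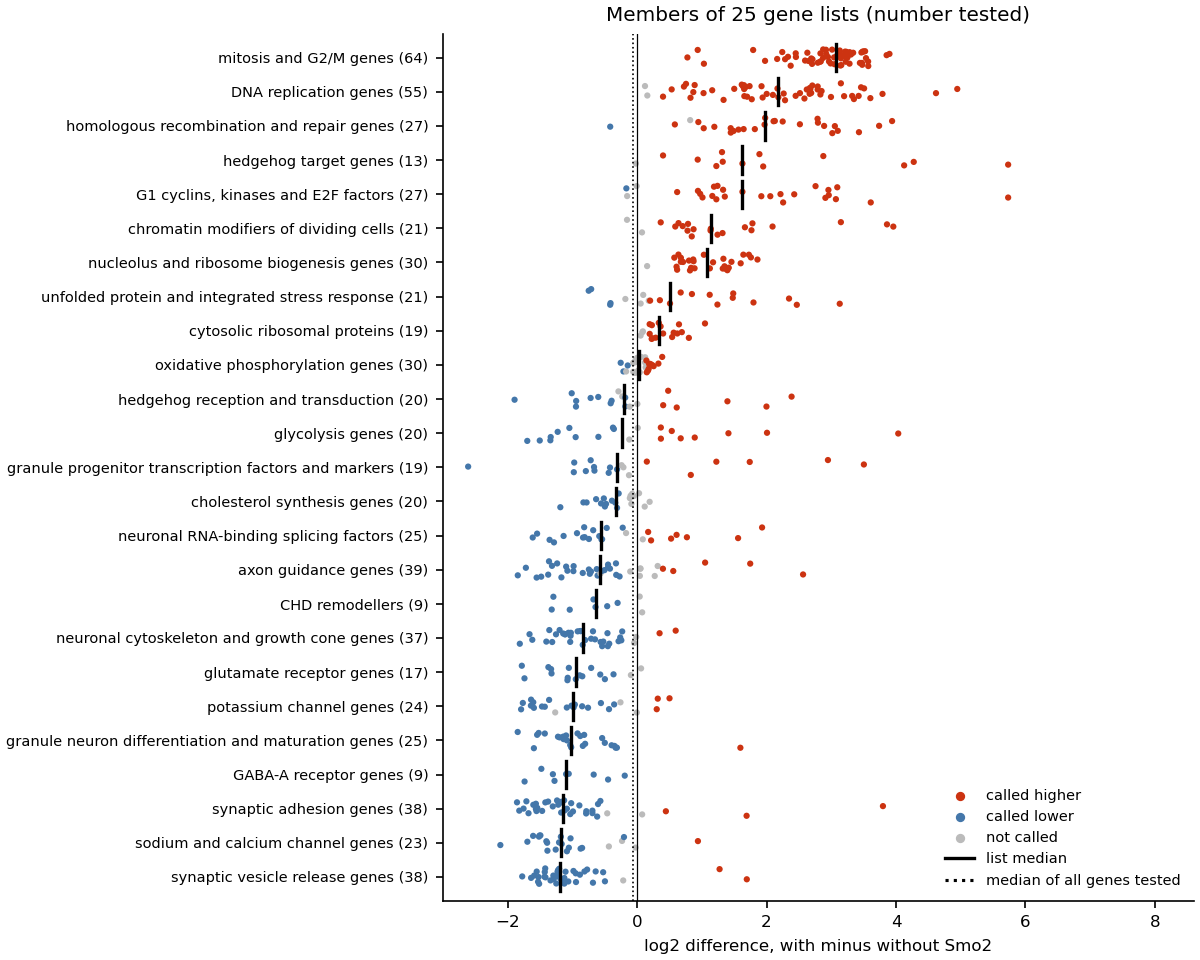
Log2 difference, with minus without Smo2, of every tested member of 25 gene lists (points; red called higher, blue called lower, grey not called), with a black bar at the list median and a dotted line at the median of all genes tested, -0.07. The lists run from mitosis genes with a median of 3.07 at the top to synaptic vesicle release genes with a median of -1.19 at the bottom.

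Of 19 transcription factors and markers of granule progenitors, 6 rose (31.6%, against 31.3% of all genes) and 10 fell (52.6%, against 38.4%), with a median of -0.31 that is above 0 when arrays are centred on the hybridization controls (0.09) or the poly-A controls (0.62). Atoh1, the factor that defines the granule lineage before cell cycle exit, read 8.61, 8.75 and 8.76 without Smo2 and 10.42, 10.35 and 10.57 with it (1.74 ± 0.08). Cxcr4, the receptor that holds progenitors beneath the meninges, read 7.57, 7.66 and 7.42 without Smo2 and 11.04, 10.90 and 11.22 with it (3.50 ± 0.10). Both groups were apart by far more than their spread. Pax6, expressed by progenitors and neurons of the lineage, read 13.46, 13.44 and 13.42 without Smo2 and 12.76, 12.83 and 12.75 with it, a decrease of 1.58-fold, and Zic2 was lower by 1.73-fold and Sox4, a factor of early neurons, by 1.64-fold. Mfap4, a matrix gene listed here as a progenitor marker, fell furthest, from 8.98 to 9.13 without Smo2 to 6.06 to 6.74 with it.

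Genes of granule neuron differentiation were lower with Smo2 in 24 of 25, around a median of -1.02. That median is -0.03 with centring on the poly-A controls. Fat2, a giant cadherin of granule cells, read 11.64, 11.44 and 11.49 without Smo2 and 9.52, 9.87 and 9.65 with it (-1.84 ± 0.10). Cadps2, which primes dense core vesicles for release, read 14.37 to 14.39 without Smo2 and 13.13 to 13.20 with it (-1.22 ± 0.05). Gap43, a growth cone protein, read 13.79 to 13.83 without Smo2 and 12.75 to 12.80 with it (-1.03 ± 0.05). Neurod1, the factor of early granule neurons, was among the brightest genes in both groups at 14.54 ± 0.15 and 14.87 ± 0.04, and its difference of -0.33 was small. The exception was Chn1, a Rac regulator of growth cones, which rose from 6.57 ± 0.12 to 8.17 ± 0.13. The genes of fully mature granule neurons Gabra6, Cbln3, Slc17a7 and Grin2c did not pass the filter on dim genes, with control means of 6.24, 6.20, 5.92 and 4.21.

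The same direction held across the neuronal lists. Of 238 genes in the 9 lists of differentiation, cytoskeleton, synapse, guidance and channel genes, 201 fell, 17 rose and 20 did not pass. Their median was -1.02, 84.5% were lower against 38.4% of all genes, and 120 were lower at least 2-fold, but only 1 at least 4-fold. Of 38 synaptic vesicle genes, 35 fell, led by Rims1, an active zone scaffold, at -1.77 ± 0.10. Vamp2, a vesicle SNARE, read 11.15, 11.11 and 10.96 without Smo2 and 9.35, 9.50 and 9.60 with it. Syt1, the calcium sensor of release, read 13.10, 13.08 and 13.14 without Smo2 and 11.58, 11.59 and 11.55 with it, a 2.89-fold decrease, and all 4 of its probe sets fell. Doc2b and Cplx2, which also act in calcium-triggered release, went the other way, at 1.70 ± 0.14 and 1.28 ± 0.13.

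Adhesion genes fell in 33 of 38 (median -1.15). Lsamp, an IgLON protein, was at -1.85 ± 0.08 and L1cam, an axonal adhesion molecule, at -1.82 ± 0.08. Cbln4, a secreted synaptic organizer, rose by 3.80 ± 0.38 from control arrays at 4.00, 5.62 and 4.58, and Flrt2 by 1.69 ± 0.24. Guidance genes fell in 27 of 39 and rose in 5, with a median of -0.57 that is above 0 with centring on the poly-A controls (0.25). Plxna2, a semaphorin receptor, fell by 1.84 and the netrin receptor Unc5c by 1.48, while Epha8 rose by 2.56 ± 0.23 and Plxnb2, a plexin of migrating granule cells, by 1.75 ± 0.08. Cytoskeleton genes fell in 33 of 37, with a median of -0.84 that is 0.12 with centring on the poly-A controls. Kif5a, an axonal kinesin, was at -1.81 ± 0.10 and Mapt, the microtubule protein tau, at -1.66 ± 0.06.

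Receptors and channels shared the decrease. No glutamate receptor gene rose and 15 of 17 fell, with Grin2b, an NMDA receptor subunit, at 10.41, 10.66 and 10.39 without Smo2 and 8.55, 8.85 and 8.70 with it. All 9 GABA-A receptor and chloride transporter genes fell. Gabra2 was at -1.74 ± 0.13 and Slc12a5, the chloride extruder of maturing neurons, at -1.48 ± 0.09. Sodium and calcium channel genes fell in 19 of 23, led by Cacna1e at -2.11 ± 0.08, and potassium channel genes in 18 of 24, led by Kcnq5 at -1.79 ± 0.06.

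Within several families, some members rose and others fell. In BAF chromatin remodelling complexes, neural progenitors and neurons are known to use different paralogous subunits. Actl6a, the progenitor subunit, read 10.59, 10.78 and 10.71 without Smo2 and 12.18, 12.05 and 12.10 with it. Its neuronal counterpart Actl6b read 9.52, 9.30 and 9.53 without Smo2 and 8.17, 8.20 and 8.07 with it. The arrays with and without Smo2 did not overlap for either gene. Of the progenitor subunits 4 of 8 rose and none fell. Of the neuronal subunits 5 of 7 fell and none rose, with a median of -0.85 that is 0.07 with centring on the poly-A controls. Smarcc1 rose by 1.29 and Smarcc2 fell by 0.60, Phf10 rose by 1.03 and Dpf3 fell by 1.14, and Ss18 rose by 0.42 and Ss18l1 fell by 1.04. Among CHD remodellers, 7 of 9 fell and none rose, with a median of -0.64 that is 0.26 with centring on the poly-A controls. Chd5 and Chd3, both found in neurons, were at -1.32 ± 0.15 and -1.29 ± 0.12, and Chd7, the remodeller the study is about, read 11.96, 11.91 and 11.92 without Smo2 and 11.20, 11.33 and 11.24 with it, a 1.59-fold decrease. Topoisomerases were split. Top2a rose as given above, whereas Top2b, the form of postmitotic cells, read 12.90, 12.94 and 12.70 without Smo2 and 12.66, 12.63 and 12.49 with it. That difference of -0.26 ± 0.09 (adjusted p = 0.0339) was not called without control replicate 1 (-0.23) or 2 (-0.21), without Smo2 replicate 2 (-0.28) or 3 (-0.21), or when quantile normalization was left out (-0.19) or replaced by median centring (-0.01). Top1 was at 0.21 ± 0.06, and the mean of its probe sets at -0.06.

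Glucose genes went both ways. Of 20 glycolysis genes, 8 rose and 10 fell, while 31.3% of all genes rose and 38.4% fell. Hk2, the hexokinase of many growing cells, read 6.42, 5.64 and 6.46 without Smo2 and 10.18, 10.21 and 10.24 with it (4.04 ± 0.22). Hk1, the hexokinase of neurons, read 11.32, 11.32 and 11.39 without Smo2 and 9.73, 9.94 and 9.85 with it, a 2.83-fold decrease. Pkm rose by 1.41 ± 0.10 and Slc16a1, a lactate transporter, by 2.01 ± 0.12, while Pfkp fell by 1.70 and Slc2a3, the neuronal glucose transporter, by 1.34. Genes of serine and one-carbon synthesis stood in the list of the unfolded protein and integrated stress response, in which 13 of 21 rose and 4 fell. Phgdh, the first enzyme of serine synthesis, read 9.44, 9.55 and 9.56 without Smo2 and 12.69, 12.64 and 12.62 with it, an 8.76-fold change. Psat1 followed at 2.47 ± 0.05 and Mthfd2 at 2.35 ± 0.08, whereas Ddit3, the stress factor of the same list, fell by 0.75. Cholesterol synthesis genes fell in 12 of 20 and rose in none, with a median of -0.32 that is above 0 with centring on the hybridization controls (0.07) or the poly-A controls (0.60).

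RNA-binding proteins mostly fell, and signalling genes went both ways. Ptbp1, which represses neuronal splicing in progenitors, rose from 10.95 ± 0.14 to 12.89 ± 0.06 by the brightest of its 3 probe sets and the 1 that was called, and Celf5 fell from 11.37 ± 0.04 to 9.75 ± 0.11. Of 25 RNA-binding splicing factors, 16 fell (64.0%, against 38.4% of all genes) and 7 rose (28.0%, against 31.3%). Their median of -0.55 is 0.36 with centring on the poly-A controls. Id1, an inhibitor of bHLH factors, rose by 2.95 ± 0.13, while Id2 fell by 0.98 and Id4 by 1.35. Sfrp2, a Wnt antagonist, read 5.51, 5.61 and 4.95 without Smo2 and 9.92, 9.78 and 10.07 with it. Of 24 Notch and Wnt genes, 11 rose (45.8%, against 31.3% of all genes) and 7 fell (29.2%, against 38.4%). The Notch genes Jag1 and Notch1 rose by 1.61 ± 0.25 and 1.45 ± 0.12, while Dll3 was at -0.63 and Rfng at -0.87. A second Notch1 probe set was not called (0.29). Of the neurotrophin receptors, Ngfr was at 2.10 ± 0.16 and Ntrk3 at 0.69 ± 0.07, with 4 of its 5 probe sets called higher and 1 lower. Ntrk2 was at -1.69 ± 0.06, with 3 of its 5 probe sets called lower and the others not called.

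**Figure D4:**
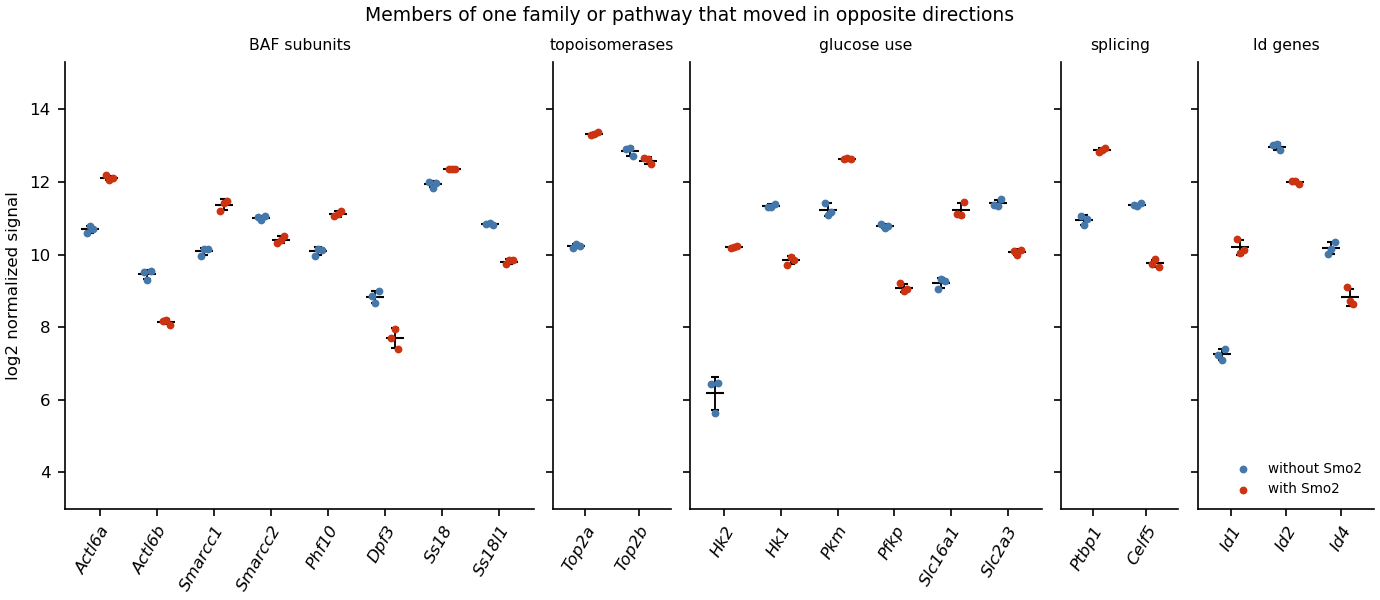
Log2 normalized signal of every array for members of 5 families or pathways, with blue points for the 3 arrays without Smo2, red points for the 3 with Smo2, and black bars for the group mean and SD. Actl6a, Smarcc1, Phf10, Ss18, Top2a, Hk2, Pkm, Slc16a1, Ptbp1 and Id1 are higher with Smo2, and the other genes shown are lower.

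The 10 largest increases among genes whose groups did not overlap were Sox18, Gpr153, Ccnd1, Bcl11b, Pgf, Cdc6, Mcm3, Sfrp2, Tbata and Myod1. Groups did not overlap in 74.1% of all genes tested. Sox18, a SoxF factor best known from blood and lymph vessels, read 6.06, 4.84 and 5.44 without Smo2 and 11.48, 11.42 and 11.64 with it (6.07 ± 0.29). Of 10 endothelial markers with a probe set, 3 passed the filter, and the summed linear signal of all 10 was 630 to 688 without Smo2 and 764 to 853 with it. Egfl7, the marker called higher, averaged 7.34 without Smo2 and 8.38 with it. Dim markers that did not pass went both ways, with Pecam1 at 4.52 and 5.43, Cdh5 at 5.03 and 5.64, Esam at 5.82 and 6.52, and Cldn5 at 5.09 and 4.78. The part of endothelial cells in the level of Sox18 was not tested. Pgf, a growth factor of the VEGF family, was at the floor in all 3 control arrays and between 9.01 and 9.31 with Smo2, so it was at least 35.3-fold higher. Bcl11b, a zinc finger factor, read 4.00, 5.02 and 4.12 without Smo2 and 9.49, 9.68 and 9.61 with it. Myod1, the myogenic factor, read 5.61, 5.88 and 4.95 without Smo2 and 9.73, 9.68 and 10.01 with it. Gpr153, an orphan receptor, rose by 5.92 ± 0.18 and Tbata by 4.38 ± 0.13.

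The 10 largest decreases were Fbxo44, Gpr17, Mfap4, Adra2c, Dusp5, Tanc2, Aqp4, Cacna1e, 6330403K07Rik and Hecw1, between 3.99-fold and 8.22-fold. Fbxo44, a ubiquitin ligase subunit, read 8.19, 8.23 and 8.35 without Smo2 and 6.45, 4.48 and 4.72 with it (SE 0.50, against a median SE of 0.08 over all genes tested). Adra2c, an adrenergic receptor, was as uneven, at 4.36, 6.81 and 7.26 with Smo2, and its adjusted p of 0.025 passed 0.05 no longer without control replicate 1 (-2.35), 2 (-2.32) or 3 (-2.43). Gpr17, a receptor of oligodendrocyte precursors, read 8.88, 8.77 and 8.90 without Smo2 and 6.17, 6.31 and 6.13 with it. Dusp5, a phosphatase for ERK, fell by 2.14, Tanc2, a synaptic scaffold, by 2.13 and the ubiquitin ligase Hecw1 3.99-fold.

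Aqp4 and Gpr17 are markers of glia, and other cerebellar cells were counted for that reason. Of 14 astrocyte and Bergmann glia genes that passed the filter, 9 fell (64.3%, against 38.4% of all genes) and 5 rose (35.7%, against 31.3%). Their median of -0.80 is 0.05 with centring on the poly-A controls. Aqp4, the astrocyte water channel, read 10.69, 10.99 and 10.80 without Smo2 and 8.55, 8.74 and 8.82 with it, and Apoe fell by 1.92, whereas Sox9 rose by 1.94 ± 0.15 and Gja1 by 1.56 ± 0.10. The summed signal of all markers on this list went from between 12800 and 14300 to between 10200 and 11400. Of 8 oligodendrocyte lineage genes that passed the filter, 3 rose and 4 fell. Pdgfra and Olig2, both of precursors, were at 1.11 and 1.19, but Gpr17 of precursors fell as given above, and Sox10, which did not pass, averaged 7.01 without Smo2 and 4.91 with it. The myelin gene Cnp was at -1.68 and Enpp6 at -1.34. Mbp, another myelin gene, was at -1.10 by its brightest probe set, with 6 of its 8 probe sets called lower and 2 higher. The summed signal, over 11 genes, was 11300 to 12400 without Smo2 and 8770 to 8980 with it. Microglia genes fell in 6 of 7, with sums of 1830 to 2300 and 932 to 1160, and the defining P2ry12, Tmem119 and Itgam averaged 4.33, 4.77 and 4.37 over the 6 arrays, each at the floor in 3 of them. Gad1, Slc32a1 and Tfap2a of GABAergic interneurons fell by 1.40 to 1.56 (sums of 6330 to 6790 and 4250 to 4610), whereas Lhx1 rose by 0.55. Pvalb, which did not pass the filter, averaged 4.24 without Smo2 and 8.09 with it. Eomes, the factor of unipolar brush cells, fell from 10.21 ± 0.05 to 8.45 ± 0.28 (sums of 4820 to 4900 and 1960 to 2250). Purkinje cell markers summed to 4110 to 4210 and 1770 to 2070 with Gad1, which interneurons share, and to 1050 to 1090 and 679 to 826 without it. Among them Rora fell from 9.09 to 7.75 and Foxp2 rose from 6.47 to 7.35, and the defining Pcp2 and Slc1a6 averaged 5.12 and 4.00. Fibroblast and pericyte markers summed to 728 to 781 and 787 to 939. The part of these cells in the lower neuronal genes was not tested.

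Gene length went with direction among the longest genes. Of 331 genes longer than 300 kb, 69.5% fell and 12.4% rose, and 38.4% fell at least 2-fold, with a median of -0.75. Of 2520 genes shorter than 10 kb, 34.3% fell and 33.4% rose, with a median of -0.03. Genes of 100 to 300 kb were between them, with 50.3% lower and a median of -0.26. Genes at least 2-fold lower had a median length of 47.7 kb and those at least 2-fold higher of 22.4 kb, against 25.1 kb for all genes. These shares describe genes, which are not replicates.

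**Figure D5:**
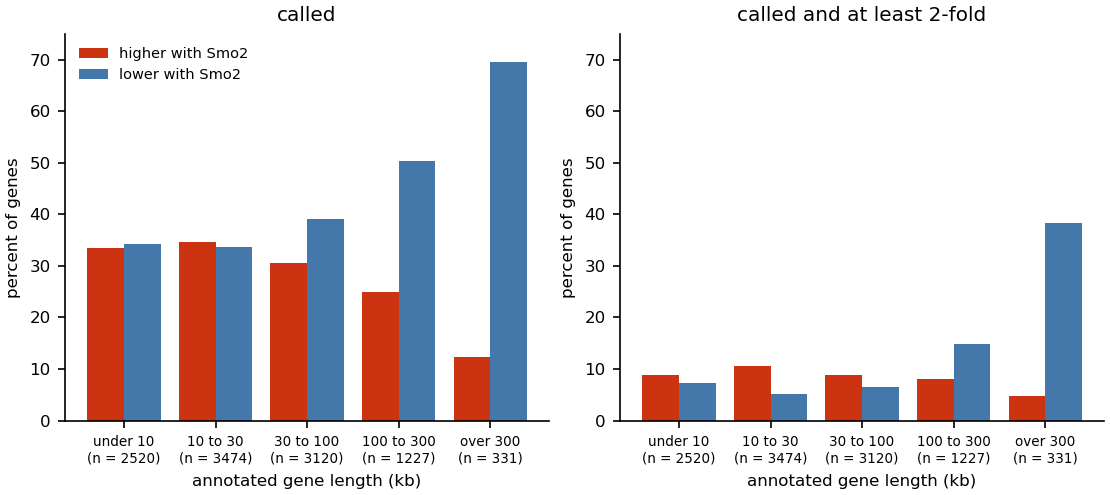
Percent of genes called higher (red) or lower (blue) with Smo2 in 5 classes of annotated gene length, for all calls (left) and for calls of at least 2-fold (right). The share of lower genes is 34.3% under 10 kb and 69.5% over 300 kb on the left, and reaches 38.4% over 300 kb on the right.

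The genes that the study names were set beside its other experiments, which share no array with this one but were normalized with it. The mutant cells carried floxed Chd7 alleles and Atoh1-Cre, which acts in the granule lineage, their controls carried the floxed alleles alone per the study, and the labels call these wild type. Cells of the drug experiment had ICRF-193 at 10 µM or DMSO for 12 h, and all were from P7 pups of the same strain label. Chd7 mutant cells had 524 genes higher (4.89%) and 409 lower (3.82%) than their controls, and cells with ICRF-193, an inhibitor of type II topoisomerases, 334 higher (3.12%) and 369 lower (3.45%) than with DMSO. Of the 409 genes lower in Chd7 mutant cells, 79.2% were also lower with Smo2 and 26 genes higher, and of the 369 lower with ICRF-193, 75.1% were lower and 41 genes higher. Of all genes tested, 38.4% were lower with Smo2 and 31.3% higher. The genes lower in both comparisons are 7.88% (Chd7 mutant cells) and 6.73% (ICRF-193) of the genes lower with Smo2. Of the 524 genes higher in mutant cells, 54.0% were higher with Smo2 and 24.2% lower. Of the 334 higher with ICRF-193, 42.5% were higher with Smo2 and 32.3% lower. Across genes, differences with Smo2 correlated with those in Chd7 mutant cells at r = 0.36 and with those under ICRF-193 at r = 0.23, a description over genes that are not independent. Of 20 genes the study names, 15 were lower with Smo2 and 4 higher. Their median of -0.69 is 0.23 with centring on the poly-A controls. The study chose some of them on arrays of this series, so they are not independent evidence of a direction. Unc5c, at 12.52 to 12.54 without Smo2 and 11.02 to 11.11 with it, was at -0.71 in Chd7 mutant cells and -1.94 with ICRF-193. Kcnd2, a potassium channel of granule cells, was at -1.42, -0.94 and -1.33 in the 3 comparisons, and Reln, which guides layer formation, at -0.84, -0.38 (adjusted p = 0.0571) and -1.44. Bmp5, a secreted growth factor, was the study gene that did not pass with Smo2, at 8.85 ± 0.13 against 9.07 ± 0.21 by its brightest probe set. Its 3 probe sets lay between -0.41 and -0.21, and 1 of them was called lower (-0.41). The difference of Bmp5 in Chd7 mutant cells was -2.86. The study's table of genes lower in both other experiments gives means of these cultures too, and appears to keep only genes already chosen for being lower in progenitors, so no count over it is given. Of 100 tested genes from its sequencing of Chd7 mutant progenitors, which are other samples, 83 fell and 7 rose, with a median of -0.86 that is 0.03 with centring on the poly-A controls.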

How the data were processed

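The authors hybridized biotinylated cRNA to 1-colour Affymetrix arrays and deposited 1 signal intensity per probe set and array, with a trimmed mean of 500.0 on every array (2% left out at each end). No source used here names the software behind these signals. Intensities were floored at 16, taken to log2 and quantile normalized over 22 arrays. Of 45101 probe sets, 34958 have 1 gene symbol in the platform annotation. Each gene was read by its brightest probe set over the 6 arrays, and the 10710 genes at or above the median of all probe sets (6.47) were tested with limma 3.58.1 in R 4.3.3 (lmFit and eBayes, 2-sided, Benjamini-Hochberg over all genes), a script tested on simulated data. The number of arrays limits the precision. The members and the 48 gene lists were chosen with earlier results of these data known. Genes named are the 10 largest changes each way whose groups did not overlap, hedgehog targets, genes the study names, up to 5 called genes each way per list, and members that account for a list or are marker genes. Cdk1, Ccnb2, Mcm5, Bub3, Orc3, Orc4 and Pvalb were named after their values were seen. Promoter windows are from RefSeq, GRCm38.p6. The labels do not say whether replicate numbers pair the arrays, and no pairing was seen. Deviations of same-numbered arrays correlated at 0.001 to 0.036 and those of differently numbered arrays at -0.046 to 0.043.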

Additional observations from a re-analysis of the deposited data

How the results depend on the processing

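The counts of higher and lower genes, and of those at least 2-fold apart, stayed within 1.5 times their values in 78 of 92 repeats. When every probe set was tested by itself, 5772 were higher and 6845 lower, with 1687 and 1434 at least 2-fold, of 19822 tested. Against a change of 1.5-fold (limma treat), 1190 genes were higher and 1150 lower. Centring on the hybridization controls gave 5112 higher and 1943 lower (1719 and 356 at least 2-fold), and on the poly-A controls 7418 and 348 (4122 and 25), both chosen after seeing the data. Without 1 array, 3097 to 3213 genes were higher and 3770 to 3847 lower, with 969 to 1005 and 876 to 901 at least 2-fold. With the replicate number as a block, 3236 were higher and 3983 lower, although no pairing by number was seen. Each of the 3 Smo2 arrays had its highest correlation with control replicate 2, so 1 of the 3 correlated best with its own number.

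Centring on the control probe sets was not part of the checks on named genes and list medians that follow. With the hybridization and the poly-A controls, 876 and 2894 of all genes called lower lay above 0. The medians of 8 and 19 of the 48 lists changed sign. Under the other alternatives, 14 differences of named genes changed sign, that of Dclk1 under 2 of them. With median centring these were Bmi1 (0.22), Cox4i1 (0.091), Ndufa1 (0.0296), Ndufa4 (0.14), Rb1 (0.0369) and Ywhaz (0.0222). With the filter and probe set taken over 22 arrays they were Dclk1 (-1.20) and Mcl1 (-0.0626). With the mean of all probe sets of a gene they were Dclk1 (-0.52), Fzd3 (0.47), Kcnab2 (-0.23), Lss (0.22), Top1 (-0.0581) and Tulp3 (-0.0524). The median of cell cycle inhibitors turned positive with median centring (0.0741), with no filter (0.0577), with a filter at a mean of 8 (0.0577) and without Smo2 replicate 2 (0.044), and ran from -0.2062 to 0.044 without 1 array. That of p53 targets was -0.009 with the filter at 8, of oligodendrocyte markers 0.0559 with the mean of probe sets, of endothelial markers 0.33 with the filter over 22 arrays and 0.0735 with none, and of sex-linked genes 0.0375 with median centring. The cause was not tested. Dim signals in one group, as for Gli1, Sox18, Hk2 and Pgf without Smo2, limit how well a fold is known.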

Other observations

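A few neuronal genes went against their lists. Of the 238 genes in the 9 neuronal lists, 8 were at least 2-fold higher with Smo2, and 5 of these 8 were also called higher in Chd7 mutant cells or with ICRF-193, 4 in each. Over all 238 genes, 17 were called higher in Chd7 mutant cells and 13 with ICRF-193. Cbln4, a secreted synaptic organizer, was at 3.80 with Smo2, 1.99 in Chd7 mutant cells and 2.56 with ICRF-193. Doc2b, a calcium sensor of release, was at 1.70, 2.08 and 2.47 in the same order, and Cplx2, a complexin, at 1.28, 1.34 and 0.72. These genes were singled out after their values were seen.

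Immediate early genes were mixed, with 3 of 12 higher and 6 lower. Fosl2, an AP-1 subunit, was at 1.69 and Dusp4, a phosphatase for MAP kinases, at -1.08. Of 24 p53 target and apoptosis genes, 8 were higher (33.3%) and 7 lower (29.2%), against 31.3% and 38.4% of all genes, with Pmaip1, a BH3-only protein, at 1.15 and Hrk, another, at -1.06. Of 12 housekeeping genes 8 were higher (66.7%) and 2 lower (16.7%), with Tfrc, the transferrin receptor, at 1.04 and B2m at -0.32.

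Among 5294 genes read by several probe sets that passed the filter, 245 (4.63%) had probe sets called in opposite directions, and 2 of these at least 2-fold each way. Kif1b, a kinesin of axonal transport, had probe sets at 1.21, 1.49 and -1.06, and Asph, an endoplasmic reticulum protein, at 1.13 and -1.24. Whether these read different transcripts was not tested.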
